A study of Saccharomyces cerevisiae with 2 samples.

Results

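The 10 histone genes of budding yeast considered here were the 8 core genes (HTA1, HTA2, HTB1, HTB2, HHT1, HHT2, HHF1 and HHF2), HTZ1, which encodes the variant H2A.Z, and HHO1, which encodes the linker histone. They were chosen by name, and not by a threshold on the score, from the deposited table of compaction scores, and 3 of them (HTA2, HHT2 and HTZ1) had a score there, among 4738 scored genes. The scores come from Micro-C, which digests fixed chromatin to nucleosomes with micrococcal nuclease and sequences the ligation products of nucleosomes that lay close together. The only strain used was swr1Δ, made in the W303 background and grown to midlog phase in YPD, with 2 libraries in the labels. It lacks Swr1, the catalytic subunit of SWR-C, which exchanges H2A for H2A.Z in nucleosomes, and the labels name no deletion of HTZ1. WT was not analysed here, so no value below is a change caused by the deletion.

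Each nucleosome wraps DNA around an octamer of the core histones H2A, H2B, H3 and H4. In budding yeast each core histone is encoded by a pair of gene copies, arranged as divergent pairs that share a promoter region: HTA1 with HTB1 and HTA2 with HTB2 for H2A and H2B, and HHT1 with HHF1 and HHT2 with HHF2 for H3 and H4. These genes are transcribed mainly in S phase, when new chromatin is assembled, and are among the more strongly transcribed genes of the cell at that time. HTZ1 stands alone in the genome, and its product marks the nucleosomes next to promoters. The compaction score is 1 value per gene for the strain, computed by the authors, and the libraries behind it cannot be separated. The sources used here state neither how it was computed, nor on which log base, nor which end of the scale is the more compact, so values are described only as low or high, and no error can be attached to any of them.

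HTZ1 (YOL012C) had the lowest score of the 3 scored histone genes, at -1.67. HTA2 (YBL003C), 1 of the genes for H2A, followed at -1.32, and HHT2 (YNL031C), 1 of the genes for H3, at -0.801. All 3 scores were therefore below 0, as were 53.8% of all scored genes, and all 3 were below the lower quartile of all scored genes (-0.342), below which 25.0% of them lie. The median over the 3 was -1.32, against -0.0394 over all 4738 scored genes. Fewer genes lay below HTZ1 (65, or 1.37% of the scored genes) than below HTA2 (124, or 2.62%) or HHT2 (395, or 8.34%). The H2A.Z gene thus stood 0.353 below the scored H2A gene, a step that held 58 other genes, and the H2A gene stood 0.516 below the scored H3 gene, a step that held 270. With a single value per gene, whether these steps exceed the error of the score cannot be said.

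**Figure D1:**
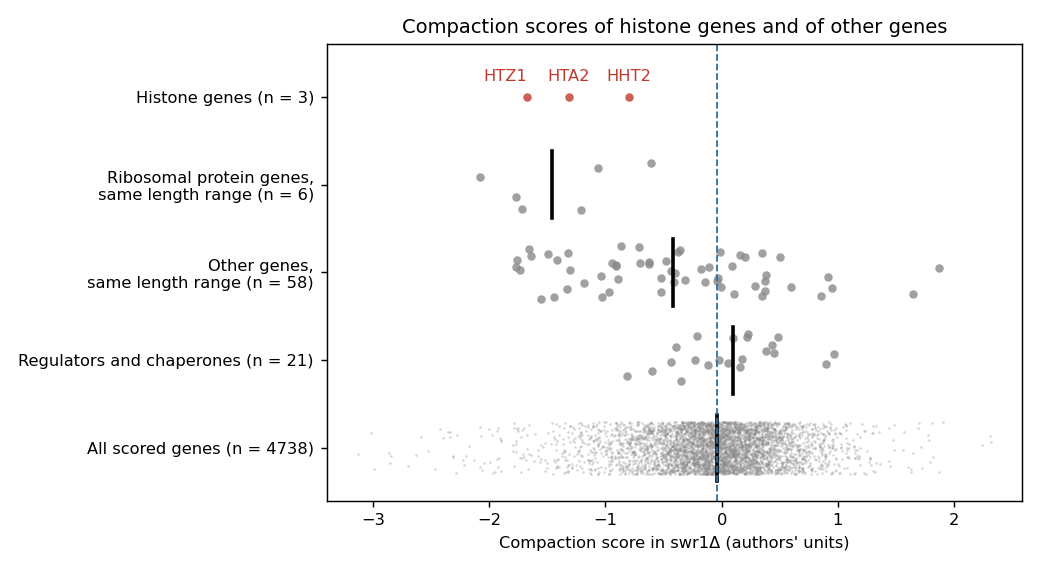
Compaction score in swr1Δ (horizontal axis, authors' units) for the 3 scored histone genes (red, named), the cytosolic ribosomal protein genes and other genes of 312 to 411 bp, the genes for histone regulators and chaperones, and all 4738 scored genes. Points are genes, vertical position within a row carries no value, black bars are row medians and the dashed line is the median of all scored genes (-0.0394). HTZ1, HTA2 and HHT2 lie in the low tail of all genes, within the range of other genes of their length.

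The histone genes are short, and low scores were common among short genes. HTZ1 spans 405 bp, HTA2 399 bp and HHT2 411 bp in the gene table of the R64 assembly, and each was set beside the 200 other scored genes nearest to it in length, which had a median score of -0.345 for all 3. HTZ1 was 1.32 below that median, with 14 of the 200 genes lower (7%). HTA2 was 0.972 below it, with 25 lower (12.5%), and HHT2 was 0.456 below it, with 58 lower (29%). The 200 genes spanned 279 to 534 bp for HTZ1, 267 to 533 bp for HTA2 and 288 to 534 bp for HHT2. The SD of the scores among the 200 genes lay between 0.746 and 0.75, so that HHT2 stood within 1 SD of the genes of its length, whereas HTA2 and HTZ1 stood beyond it. This SD describes the spread between genes and is not an error of the score.

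Between 312 and 411 bp, the span of the core histone genes and HTZ1, 64 other protein-coding genes had a score. Genes for proteins of the cytosolic ribosome, called ribosomal protein genes here, made up 6 of them, with scores between -2.08 and -0.61 and a median of -1.46. The other 58 had a median of -0.421. Of the 6 ribosomal protein genes, 3 had a score below that of HTZ1, namely RPS26B (-2.08), RPS20 (-1.77) and RPL32 (-1.72), and 5 had a score below that of HHT2. Of the other 58 genes, 3 lay below HTZ1 (MRPL37, YJR146W and ICS3), 11 below HTA2 and 21 below HHT2. MRPL37 is a mitochondrial ribosomal protein gene and was counted with these. Of all 64 genes, 6 lay below HTZ1, 14 below HTA2 and 26 below HHT2. The histone genes therefore fell inside the range of both sets. In the order of all scores HTZ1 stood between SWM2 (-1.68) and the ribosomal protein gene RPL42B (-1.66). HTA2 stood between DIF1 (-1.32), whose product regulates the localisation of ribonucleotide reductase, and YMR326C (-1.31). HHT2 stood between the kinetochore gene MCM22 (-0.802) and TAL1 (-0.80), which encodes transaldolase. These neighbours in score are alike in a single number from 1 strain.

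The 7 histone genes without a score in the table used here were HTA1, HTB1, HTB2, HHT1, HHF1, HHF2 and HHO1. They were looked for by gene name and by systematic name. Few genes of this length had a score at all: 3 of the 9 core and H2A.Z genes did (33.3%), as did 64 of 305 other protein-coding genes of 312 to 411 bp (21%) and 4581 of 6021 protein-coding genes of any length (76.1%). Among genes of 301 to 400 bp, where HTA1, HTA2, both H2B genes and both H4 genes fall, 19.8% were scored (95% Wilson interval 15.8% to 24.4%). The share was 32.2% (26.9% to 38%) at 401 to 500 bp, where HTZ1 and both H3 genes fall, and 67.2% (61.3% to 72.5%) at 501 to 600 bp. All genes of a class were counted. The intervals treat genes as independent draws and measure no error of the score. HHO1, at 777 bp, was unscored in a class (601 to 800 bp) in which 85.2% of genes had a score. The scored genes also had lower scores in the shorter classes, with a median of -0.497 at 301 to 400 bp, -0.314 at 401 to 500 bp and -0.025 at 1001 bp and above. All 3 scored histone genes are on the Crick strand, on which 6 of the 10 lie, and 0 of the 4 on Watson had a score. Among other genes of 312 to 411 bp, 21.2% on Crick and 20.8% on Watson had a score. Why genes lack a score was not tested.

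**Figure D2:**
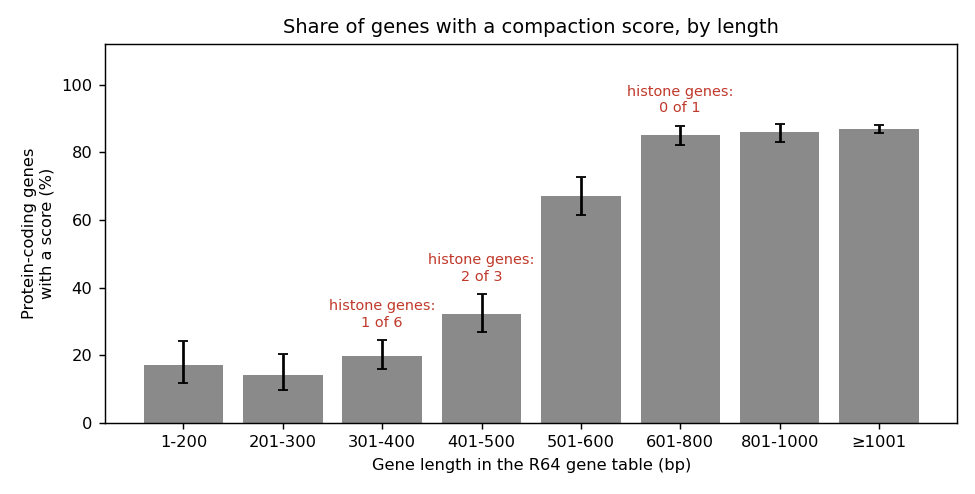
Share of protein-coding genes with a compaction score in swr1Δ (vertical axis, percent) by gene length (horizontal axis, bp), with 95% Wilson intervals as whiskers, and in red the number of histone genes scored of those in the class. The whiskers treat genes as independent draws, although all genes of a class were counted. The share is 19.8% at 301 to 400 bp, where 1 of 6 histone genes had a score, and 85.2% at 601 to 800 bp, where HHO1 had none.

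The divergent pairs and the copies of each histone could not be compared, because no pair and no set of copies had both genes scored. For H2A and H2B, the HTA2-HTB2 pair (chromosome II, R64 positions 235394 to 235792 for HTA2 and 236492 to 236887 for HTB2, with 699 bp between them) had a score for HTA2 alone, and the HTA1-HTB1 pair had none. For H3 and H4, the HHT2-HHF2 pair (chromosome XIV, 575640 to 576050 for HHT2 and 576727 to 577038 for HHF2, with 676 bp between them) had a score for HHT2 alone, and the HHT1-HHF1 pair had none. Of all 1527 divergent pairs of adjacent protein-coding genes, 880 (57.6%) had both genes scored, but of 34 other pairs in which neither gene exceeded 411 bp, 1 had. Many ribosomal protein genes also come as near-identical A and B copies. Both copies were scored in 48 of 59 such sets, with a median absolute difference of 0.471 and a range of 0.0015 to 1.74. Both copies were scored in 0 of 4 sets for the histones, against 3 of 6 sets of ribosomal protein genes in which neither copy exceeded 411 bp.

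HTZ1 was part of a divergent pair in which both genes had a score. On chromosome XV (R64, 303579 to 303983) it is transcribed away from PLB3, a phospholipase B gene that begins 1365 bp away, against a median of 511 bp between the genes of all divergent pairs. PLB3 had a score of -2.31, with 17 scored genes lower, and lay 0.637 below HTZ1. Their absolute difference was larger than that of 69.5% of the 880 scored divergent pairs, in which the median was 0.403 (quartiles 0.203 and 0.726). In 1 of the 880 pairs, HTZ1-PLB3 itself, both genes had a score at or below that of HTZ1, although 21 pairs had at least 1 gene below it. Both genes were below -1 in 3 pairs (0.341%), and the other 2 were COM2-RPS26B (-1.19 and -2.08) and RPS4A-YJR146W (-1.11 and -1.76). PLB3, at 2061 bp, is not a short gene. HTZ1 and PLB3 were known to be low when this pair was looked up, so the counts describe the pair and test nothing.

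**Figure D3:**
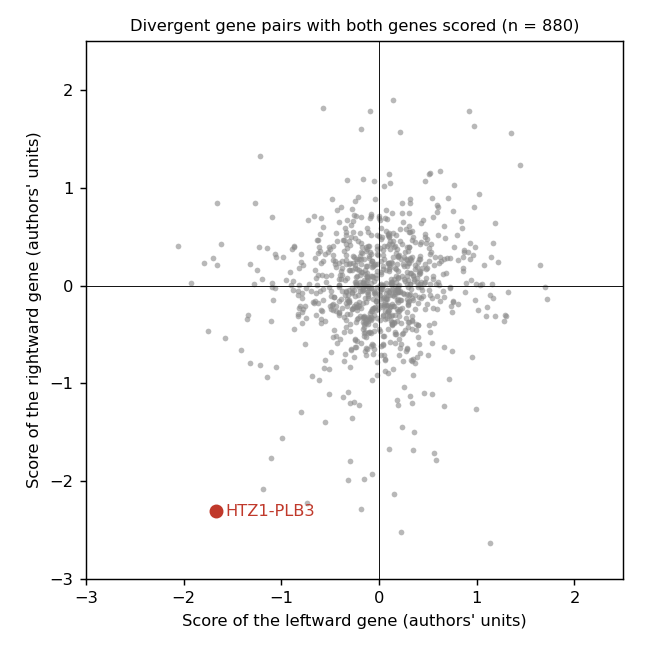
Scores in swr1Δ of the 880 divergent pairs of adjacent genes with both genes scored, with the gene read leftward on the horizontal axis and the gene read rightward on the vertical axis (authors' units). Each point is a pair, and HTZ1-PLB3 (red, at -1.67 and -2.31) is the only pair in which both genes lie at or below the score of HTZ1.

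The other scored genes around HTZ1 were higher than it. HRD1, a ubiquitin ligase gene of the endoplasmic reticulum that begins 543 bp from HTZ1 on the other side, had a score of 0.0341, and the next scored gene beyond it, YOL014W, had -0.378. RCL1, a ribosomal RNA processing gene on the far side of PLB3, had -0.185. The median of these 4 neighbours was -0.282, and HTZ1 was 1.39 below it. Over 10 neighbours, 5 on either side, the median was 0.0199, and 9 of them had a higher score than HTZ1, the exception being PLB3. Of all scored genes, 1.37% were lower than HTZ1, so mostly higher neighbours are what its rank gives. With only the nearest gene on each side, HRD1 and PLB3, the gap was 0.533, since PLB3 is then 1 of 2 values.

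HTA2 was lower than all 10 of its nearest scored neighbours, and 2.62% of all scored genes were lower than HTA2. UTP20, a gene for ribosome assembly that converges on HTA2 and ends 276 bp from it, had a score of -0.11, and NTH2, a trehalase gene on the far side of HTB2 and of the unscored ECM15, had -0.181. PDR3 and RER2, the next scored genes outward, lay 14993 bp and 5915 bp from HTA2 and had -0.361 and 0.47. The median of these 4 was -0.146, which HTA2 undercut by 1.17. HIR1, which encodes a repressor of other histone genes, is the fourth scored gene to the left of HTA2, 23218 bp away. The score of HIR1 was 0.38.

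HHT2 was lower than 8 of its 10 nearest scored neighbours, and 8.34% of all scored genes were lower than HHT2. SIW14, a phosphatase gene that converges on HHT2 from 288 bp away, had a score of -0.276, and YNL033W beyond it had 0.15. On the other side, past HHF2 and the unscored KTR5 and CRZ1, SAM50 (mitochondrial outer membrane assembly) had 0.862 and SSN8 (the cyclin of the Mediator kinase module) had 0.328. The median of these 4 was 0.239, and HHT2 was 1.04 below it. SAM50 and SSN8 lay 5869 bp and 8269 bp from HHT2. NCE103 (-1.04) and EFM6 (-0.968) were the 2 neighbours lower than HHT2. Across the 3 scored histone genes the median difference from the 4 nearest neighbours was -1.17. The neighbours were not matched for length. Against the 200 scored genes nearest in length the median difference was -0.972.

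**Figure D4:**
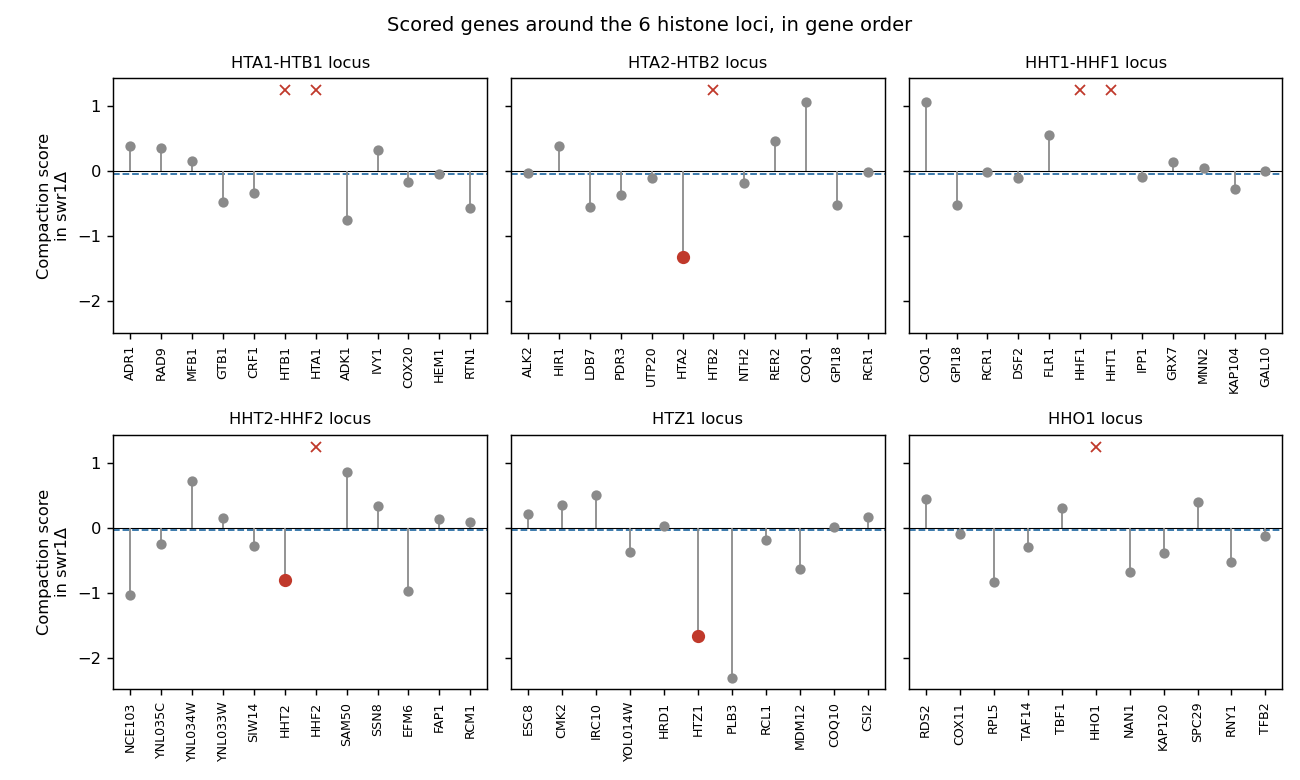
Compaction score in swr1Δ (vertical axis, authors' units) of the 5 scored genes closest to each of the 6 histone loci on either side, in gene order and without scale along the horizontal axis. Histone genes with a score are red points, those without are red crosses whose height has no meaning, and the dashed line is the median of all scored genes. HTZ1 and HTA2 stand below their neighbours except PLB3, and HHT2 below all but NCE103 and EFM6. Of all scored genes, 1.37% lie below HTZ1, 2.62% below HTA2 and 8.34% below HHT2.

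At the HTA1-HTB1, HHT1-HHF1 and HHO1 loci, which had no scored histone gene, the 4 flanking genes of each had scores from -0.748 to 0.562. Next to the HTA1-HTB1 pair, CRF1 (a corepressor of ribosomal protein genes) had -0.335 and GTB1 (a glucosidase subunit) had -0.472 on the HTB1 side, and ADK1 (adenylate kinase) had -0.748 and IVY1 0.325 on the HTA1 side. Next to the HHT1-HHF1 pair, FLR1 (a drug transporter) had 0.562 and DSF2 -0.106 on the HHF1 side, and IPP1 (inorganic pyrophosphatase) had -0.0902 and GRX7 (a glutaredoxin) 0.139 on the HHT1 side. Next to HHO1, TBF1 (a DNA-binding factor) had 0.309 and TAF14 (a subunit shared by several transcription complexes) -0.298 on one side, and NAN1 (ribosomal RNA synthesis) had -0.679 and KAP120 (a nuclear import receptor) -0.387 on the other. The medians of the 4 flanking genes were -0.404 at HTA1-HTB1, 0.0244 at HHT1-HHF1 and -0.343 at HHO1. None of these genes was as low as HHT2, below which 8.34% of all scored genes lie. Further out from HHO1, at 4813 bp, RPL5 had -0.832 and was lower than HHT2. The scores of flanking genes give no value for the histone genes themselves.

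Genes that act on histones had scores on both sides of 0, as did scored genes in general. A list of 24 was taken: the centromeric H3 variant, regulators of histone transcription, and histone chaperones, which escort histones to and from DNA. Of these, 21 had a score, 9 below 0 and 12 above it, with a median of 0.0985, against 53.8% below 0 and a median of -0.0394 for all scored genes. The exceptions without a score were SWI4, CHZ1 and SPT6. In the HIR complex, which represses the histone pairs other than HTA2-HTB2 outside S phase, HIR1 (0.38), HIR3 (0.214) and HPC2 (0.16) were above 0. HIR2 had a score of -0.816 and was the only 1 of the 21 scored genes of the list below HHT2. Of all scored genes, 8.34% lay below HHT2. Of the activators, SPT10, which binds the histone promoters, had -0.35, and its partner SPT21 had 0.449. SWI6 and MBP1, of the factors that drive transcription at the start of S phase, had 0.0985 and 0.0525.

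The chaperone genes had scores on both sides of 0. RLF2, CAC2 and MSI1, the subunits of CAF-1, which deposits H3 and H4 behind the replication fork, had scores of 0.967, 0.226 and 0.482, and ASF1, which hands H3 and H4 to CAF-1 and is needed for H3-K56 acetylation, had 0.895. SPT16 and POB3, the subunits of FACT, which handles H2A and H2B during transcription, were both below 0, at -0.432 and -0.388. Among chaperones of H2A and H2B, NAP1 had -0.021, and CHZ1, the chaperone of H2A.Z, had no score. VPS75, HIF1 and RTT106, which encode further histone chaperones, had 0.176, 0.431 and -0.225. CSE4, the gene for the H3 variant of centromeres, had -0.597 at a length of 690 bp, which is above the score of HHT2, and SCM3, which places that variant, had -0.121. The scored genes of this list span 672 to 4947 bp, all longer than the core histone genes, so length and function cannot be told apart in this comparison.

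**Figure D5:**
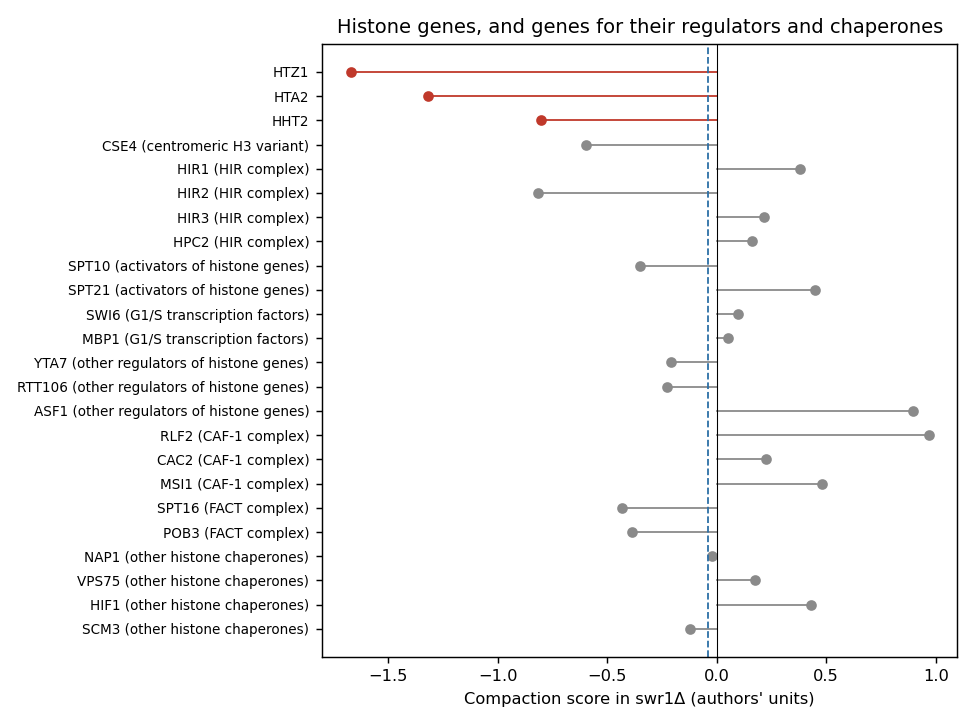
Compaction scores in swr1Δ (horizontal axis, authors' units) of the 3 scored histone genes (red, top) and of the 21 scored genes for histone regulators, chaperones and the centromeric H3 variant (grey), each drawn from 0. The dashed line is the median of all scored genes, and HIR2 is the only grey point below HHT2. Of all scored genes, 8.34% lie below HHT2.

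SWR1 (YDR334W), which this strain lacks, was nevertheless listed with a score of -2.13, with 24 genes lower. HTZ1 lay 0.459 above it, and PLB3 lay 0.178 below it. How far the deletion extends and which reads lie behind the value of SWR1 were not analysed here.

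A core histone gene spans only the shortest distances over which read pairs were counted. The counts used were those of in-in pairs, named by the orientation of the reads, at distances of 1 to 10000 bp. Library A held 7944948 such pairs and library B held 6169934, and the headers do not say which replicate either is. Distances up to 411 bp, the length of the H3 genes, accounted for 98.5% of those in library A, with Wilson bounds at 95% confidence of 98.448% and 98.4652%. Library B had 97.3% within the same length, with bounds of 97.3056% and 97.3311%, and the mean was 97.9% ± 0.805 (SD, n = 2). Whether in-in pairs this short come from ligation was not tested. The intervals cover counting error only, since no molecular identifiers are named in the sources used here. The counts are for the whole genome, so the number of read pairs behind the score of any histone gene is unknown.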

How the data were processed

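The authors performed Micro-C on swr1Δ yeast, for which the labels name 2 samples, whereas the study's methods give 3 biological replicates, processed beside WT, which was not analysed here. The submitters' processing notes name CASAVA 1.8.2, Bowtie2 and the sacCer3 build, and the filters, the removal of duplicates and the treatment of reads that map to several copies are not given in the sources used here. The authors deposited 1 compaction score per gene, whose formula and combination of libraries are not given in the sources used here. They also deposited counts of read pairs at each distance for 2 libraries, without normalization. The in-in columns were used and the 6 per-sample columns of other orientations were not, a narrower choice than the one planned. Library A is the library with more in-in pairs.

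Lengths, strands (from the systematic names), positions and gene order were taken from the RefSeq gene table of R64, the assembly also called sacCer3, in which 4585 of 4738 identifiers (96.8%) were found. Every value is a description: with 1 score per gene and 1 strain no test between groups could be made. The members and lists were chosen with earlier results of these data known. Named genes were the histone genes, the 2 scored genes closest to each on either side, the genes next in score, the list of 24 regulators and chaperones and SWR1. The members of the low divergent pairs, PLB3 as a pair with HTZ1, and the genes lower than HTZ1 among those of its length were named after their values were seen. So were the unscored genes between neighbours, and HIR1, NCE103, EFM6 and RPL5 as neighbours. Shares of scored genes by length class and of in-in pairs by library carry 95% Wilson intervals, and other shares carry none. The rank, length and neighbour functions were tested on simulated data and met all 3 known answers. Analyses were run in Python 3.11.15 with pandas 2.3.3, numpy 2.4.6 and scipy 1.17.1, and plots were drawn with matplotlib 3.10.9.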

Additional observations from a re-analysis of the deposited data

How the results depend on the processing

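The median score of the 3 scored histone genes, -1.32, was -1.26 as a mean, -1.06 for HTA2 and HHT2 alone and -0.972 after subtracting the median of the 200 scored genes nearest in length, and it stayed below 0 under these alternatives. The median share of genes with a lower score, 2.62%, was 12.5% among the 200 and 15% among the 100 genes nearest in length. It was 1.99% without cytosolic ribosomal protein genes. Of the 64 other scored genes of 312 to 411 bp, 14 lay below HTA2, the gene that gives this median. HTZ1 lay below the scored core genes by 0.611, and the value was -0.353 against HTA2 alone. The median difference from the neighbours, -1.17, was -1.09 with 1 gene and -1.24 with 5 genes on each side. The share of in-in pairs within 411 bp, 97.9%, was 95.6% within 312 bp and lay between 97.3% and 98.5% with 1 library left out, and the planned value without in-in pairs was not run because the other orientations were not used. The number of scored histone genes below 0, 3 of 3, was the same below the median and below the lower quartile of all scored genes. The planned differences within divergent pairs and between copies gave no value, because no pair had both genes scored. Scores have no replicate values, so no replicate could be left out of them. No paired analysis was possible because WT was not analysed here, which leaves 1 group. The depth behind a single score is unknown, which limits every comparison between genes.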
